A study of Mus musculus with 4 samples.

Results

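Myc, its partners in the Max network, and 34 genes of ribosome production and cell growth were followed in double positive thymocytes, the stage of T cell development that carries both CD4 and CD8. The members were given as 41 gene symbols, and every probe set annotated with exactly 1 of these symbols was taken. All 41 were found, as 93 of the 45037 probe sets and as 41 of the 18193 named genes. The arrays came from 4 mice, 2 with the genotype Ikf/f CD4-Cre- (called Cre-negative) and 2 with Ikf/f CD4-Cre+ (called Cre-positive). Both groups carry the floxed allele of Ikzf1, the gene of the zinc finger protein Ikaros. Only the Cre-positive mice have the Cre recombinase, whose CD4-Cre transgene becomes active in CD4-expressing thymocytes and is meant to delete the allele there. No Cre-positive mouse with an intact Ikzf1 was part of the comparison, so Cre itself and the loss of Ikaros cannot be told apart. The labels state neither age nor sex, nor how the cells were isolated.

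Myc is a transcription factor of the basic helix-loop-helix leucine zipper type that drives cell growth. It binds DNA as a dimer with Max, at E-boxes with the letters CACGTG, while the Mxd proteins, Mxi1 and Mnt pair with Max in its place and repress. Genes under Myc include those of the nucleolus, where RNA polymerase I copies ribosomal RNA and a long series of factors cuts, modifies and packs it into the small and large ribosomal subunits. In the thymus, growth and division run high just before the double positive stage and then cease in most cells.

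Signals are RMA values on the log2 scale, 1 per probe set and array, and a difference of 1 is a doubling. Each gene is represented by its brightest probe set, on the mean of the 4 arrays. Genes entered the test if that mean reached 4.76, the 40th percentile of named probe sets. All 41 members were kept among 11639 genes; the Cre-negative mean of Rrp12 alone, at 4.70, lay under this limit. Signals of different probe sets are not compared with each other. All differences are Cre-positive minus Cre-negative, and called means an adjusted p under 0.05 in limma, two-sided, with Benjamini-Hochberg adjustment over all kept genes.

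Ikzf1 read 12.40 and 12.08 on the Cre-negative and 10.80 and 10.62 on the Cre-positive arrays, so it fell by 1.53 on the log2 scale (SE 0.16, limma adjusted p = 0.024). Whether these probes lie in the deleted part is not known here. Of the thymocyte markers, Cd4, Cd8a, Cd8b1, Rag1, Rag2, Dntt and 4 others had a mean signal of 12.01 to 12.26 on every array. In limma 0 of 10 were called and 3 had an unadjusted p under 0.05, all lower, against 6.29% of all kept genes. In 8 of these 10 markers both Cre-positive arrays lay below both Cre-negative arrays, against 18.7% of all kept genes, and the median difference was −0.19. Cd1d1 differed by −0.66, Cd8a by −0.30, Cd24a by 0.14 and Dntt by 0.01. Cre-negative sample 2 stood apart by sex-linked genes: Xist read 12.75 there and 4.73 to 5.37 elsewhere, and the Y-linked gene Kdm5d read 2.86 there and 8.23 to 8.37 elsewhere. The fit without it is therefore also the fit on the 3 arrays alike in these genes. The kept macrophage and granulocyte markers had mean signals of 6.33 and 6.62 on the Cre-positive arrays, against 5.26 and 5.13. C1qb, C1qc and S100a8 of this list had Cre-negative means of 4.71, 4.58 and 4.26, below the filter limit. They entered only through their Cre-positive signals, so they had to be higher. Of the 11 kept markers 3 were called higher in limma (Lyz1, Lyz2 and Ctss), against 1.11% of all kept genes. The groups overlapped for Csf1r and Adgre1. Cre-positive sample 2 stood apart in the granulocyte gene S100a8, at 8.38 against 4.02 to 4.52 on the other 3 arrays. Of 9 dendritic cell markers, H2-Ab1 and Irf8 were called higher (1.11% of all kept genes were), and the list mean was 6.40 and 6.46 against 5.74 and 5.46. The list was mixed. H2-Aa differed by 2.25, H2-Eb1 by 1.68, H2-Ab1 by 1.58, Irf8 by 1.08 and Cd74 by 0.89. Siglech differed by 0.01, Zbtb46 by −0.14 and Flt3 by −0.16. Itgax differed by 0.27, but its Cre-negative mean of 4.65 lay below the filter limit, so it had to be higher. Among 5 stromal and epithelial markers Pdgfrb was called higher (1.11% of all kept genes were), and Col1a2 read 11.55 and 8.01 against 5.18 and 5.33. Krt8 differed by 0.43, Krt5 by −0.004 and Epcam by −0.13. Of the markers below the filter, Col1a1 and Col3a1 each differed by −0.03, Pdgfra by −0.05 and Foxn1 by 0.20. None of 4 B cell markers was called in limma, with 1, Ms4a1, higher at an unadjusted p under 0.05 (14.3% of all kept genes were). Ms4a1 differed by 0.71, Pax5 by 0.18, Ighm by −0.27 and Cd79b by −0.08. The Cre-negative mean of Ms4a1 was 4.56, below the filter limit, so this gene had to be higher. The single kept erythroid marker, Alas2, differed by −0.03. Ptcra, a gene of the preceding double negative stage, differed by 1.16 (SE 0.18, limma adjusted p = 0.054), and 0 of 6 genes of that stage were called in limma, with 3 higher and 1 lower at an unadjusted p under 0.05. Dtx1 of that list differed by 1.93, Cd44 by −0.61 and Il2ra by −0.40. The part of these cell types in the results on the 41 genes was not tested. In such bulk samples, fewer cells of a type and less RNA per cell cannot be told apart.

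Myc rose 2.81-fold in the Cre-positive mice, and it was the single member called in either direction. Most of the other 40 genes showed smaller differences of the same sign. The difference was above 0 for 33 of 41 genes, against 61% of all kept genes. Both Cre-positive arrays lay above both Cre-negative arrays for 27 of 41 (65.9%), where 34.2% of all kept genes did so, and below both for 3, where 18.7% did so. Without Rrp12, 26 of 40 lay above. The member median was 0.33 (quartiles 0.02 and 0.43) and the median of all kept genes 0.06. Over all kept genes 1.37% were called, 1.11% higher and 0.266% lower. At an unadjusted p under 0.05 in limma, 20 members were higher (48.8%) and 1 was lower, against 14.3% and 6.29% of all kept genes. Leaving out Rrp12, which had to be higher, gave 19 of 40 (47.5%). Thus the share with a small unadjusted p exceeded that of all genes, while the call rate rests on Myc alone. The members were drawn up with results of these arrays known, and no test of the list was made.

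**Figure D1:**
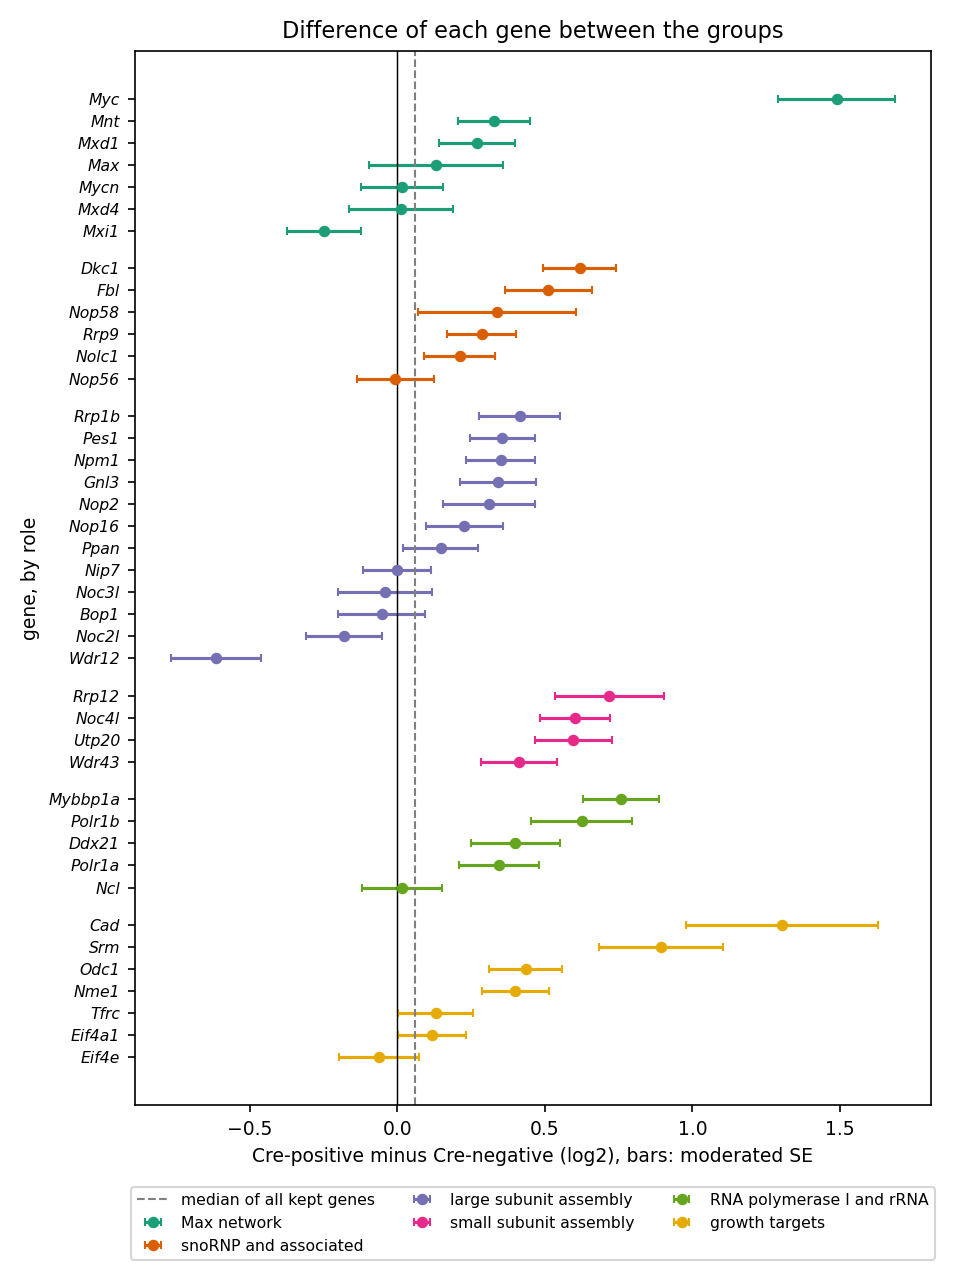
Difference between the groups for each of the 41 genes, Cre-positive minus Cre-negative (log2), ordered by role; points are differences of group means with 2 arrays each, bars the moderated standard error, and the dashed line the median of all kept genes (0.06). Myc at 1.49 and Cad at 1.30 lie farthest to the right and Wdr12 at −0.61 farthest to the left.

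Scaling matters for these counts. With each array centred on its median over the kept genes, every difference moved down by about 0.13, and the median of all genes went from 0.06 to −0.07. The member median became 0.20. After centring, both Cre-positive arrays lay above both Cre-negative arrays for 21 of 41 members (51.2%), against 18.5% of all genes, and below both for 6, against 36.3%. At an unadjusted p under 0.05, 10 members (24.4%) were higher in limma, against 7.66%. Relative to the median of all genes, 30 of 41 members were higher. Centring shifts all genes alike, so it could not change this count. By definition, as many of all genes lie above their median as below it. The split of all calls moved from 80.6% higher to 61.0% higher. The count of 20 was also lower with any array left out, where 1 array remains in a group and the share of all genes passing fell too. Leaving out Cre-negative sample 1 gave 14 members, where 12% of all genes passed, and leaving out Cre-negative sample 2 gave 16, where 12.2% did. Leaving out Cre-positive sample 1 gave 8, where 9.42% passed, and leaving out Cre-positive sample 2 gave 10, where 9.74% did.

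Within the Max network, 1 of 7 genes was called, Myc itself (1.37% of all kept genes were called). The median difference was 0.13. In 3 of 7 (42.9%) the Cre-positive arrays lay above the Cre-negative arrays and in 1 below, near the 34.2% and 18.7% of all kept genes. At an unadjusted p under 0.05 in limma, 2 were higher and 0 lower, against 14.3% and 6.29% of all kept genes. Myc read 6.09 and 6.52 in the Cre-negative mice and 7.97 and 7.62 in the Cre-positive mice, given here and in the following as sample 1 and then sample 2. The groups are apart by 1.10 at the nearest pair of arrays, more than the 0.43 and 0.35 between mice of a group. The group means were 6.31 ± 0.30 and 7.80 ± 0.25 (SD, n = 2 each), and the difference was 1.49 (SE 0.20, limma adjusted p = 0.0414), rank 111 of all kept genes by p. This call was near the threshold. It was lost with arrays centred (1.36, adjusted p = 0.0541) and when every probe set was tested on its own (adjusted p = 0.0508). It was also lost with any array left out. Such fits leave 1 array in a group and 1 residual degree of freedom, and calls fell for genes in general. This loss therefore cannot show whether the Myc difference depends on a single array. The difference was 1.28 without Cre-negative sample 1 and 1.70 when sample 2 of that group was dropped. Without Cre-positive sample 1 it was 1.31, and with sample 2 of that group dropped 1.66.

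Mycn, the paralogue of Myc used in several embryonic tissues, read 6.40 and 6.55 against 6.37 and 6.62. Its groups overlap, with a difference of 0.02 (SE 0.14). Max, the shared partner, read 7.85 and 7.69 against 7.58 and 8.22. Cre-positive sample 1 was its lowest array and Cre-positive sample 2 its highest, so the mice of that group lay farther apart than the group means did (difference 0.13, SE 0.23).

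Among the repressive partners, Mnt read 8.38 and 8.33 against 8.77 and 8.61, with no overlap and a difference of 0.33 (SE 0.12, limma adjusted p = 0.21). Its dimmer probe set differed by −0.16. Mxd1, which is linked to terminal differentiation, read 8.26 and 8.48 against 8.60 and 8.68 (difference 0.27, SE 0.13, limma adjusted p = 0.316). Mxi1 was the network gene with the lowest difference. It read 9.42 and 9.28 against 9.02 and 9.18, a difference of −0.25 (SE 0.13, limma adjusted p = 0.343), and its other probe set also differed by −0.25. Mxd4 read 10.77 and 11.03 against 11.10 and 10.72, with overlapping groups and a difference of 0.01. Of 7 further genes of the network or E-box binding factors kept by the filter, 0 were called in limma and 0 had an unadjusted p under 0.05. Of all kept genes, 14.3% were higher and 6.29% lower at that threshold. Mga differed by 0.14, Mxd3 by 0.58 (SE 0.52), and the Mondo partner genes Mlx and Mlxip each by −0.15.

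**Figure D2:**
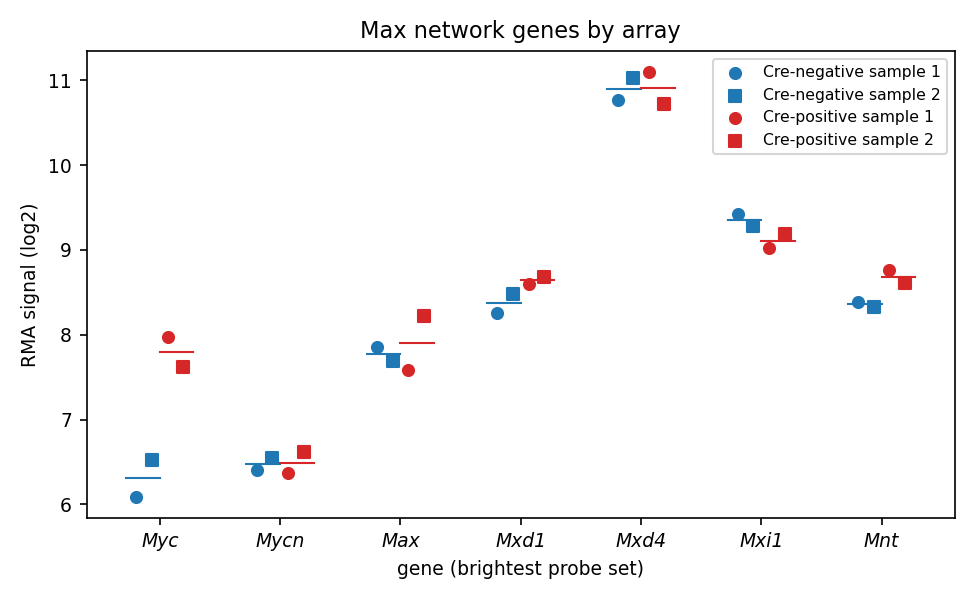
RMA signals (log2) of the 7 Max network genes on the 4 arrays, each gene by its brightest probe set; blue marks are Cre-negative and red marks Cre-positive mice, circles sample 1 and squares sample 2, and short lines the group means. Myc is the gene whose groups lie farthest apart, 6.09 and 6.52 against 7.97 and 7.62.

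The E-box was looked for in the promoters, since this is the site that Myc, Max and their rivals share. RefSeq promoter windows (GRCm38.p6, 250 bases before to 50 after the start) were matched by symbol for 35 members, in 44 windows; Myc, Fbl, Npm1, Bop1, Rrp12 and Srm had none in the table. CACGTG reads the same on both strands. It was found for 11 of the 35 genes (31.4%), against 8.09% of all 27025 genes of the table and 11.7% of the 9445 kept genes with a window. The median GC content of the windows was 60.3% for the members and 60.7% for the kept genes. Many members are known as Myc targets, so this share describes the choice of the list. TGGGAA, a core bound by Ikaros-type zinc fingers, was sought on both strands and found for 11 of 35 members (31.4%), against 26.4% of kept genes, which is near that background. Neither motif contains the other. A match is a run of letters and shows no binding.

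The 13 E-boxes are shown with their surroundings, 30 bases each, 5′ to 3′ on the strand of the gene, with the E-box in capitals. Utp20 and Mybbp1a have their E-box near the end of the window, so the stretch is not centred there.
Max (chr12:76962234-76962263, minus strand): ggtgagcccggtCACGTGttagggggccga
Mxd4 (chr5:34187912-34187941, minus strand): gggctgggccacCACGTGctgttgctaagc
Mnt (chr11:74830789-74830818, plus strand): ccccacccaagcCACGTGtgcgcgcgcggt
Nop2 (chr6:125131811-125131840, plus strand): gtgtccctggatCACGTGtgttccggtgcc
Pes1 (chr11:3963965-3963994, plus strand): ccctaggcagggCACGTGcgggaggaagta
Wdr43 (chr17:71616220-71616249, plus strand): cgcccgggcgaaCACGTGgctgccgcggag
Utp20 (chr10:88826765-88826794, minus strand): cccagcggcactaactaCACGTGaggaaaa
Mybbp1a (chr11:72441347-72441376, plus strand): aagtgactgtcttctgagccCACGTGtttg
Nme1 (chr11:93968273-93968302, minus strand): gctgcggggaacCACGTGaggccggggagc
Nme1 (chr11:93968037-93968066, minus strand): agcttgatacgcCACGTGggctcgcctttg
Eif4e (chr3:138527028-138527057, plus strand): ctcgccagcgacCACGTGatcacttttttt
Eif4e (chr3:138527192-138527221, plus strand): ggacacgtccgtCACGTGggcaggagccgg
Eif4a1 (chr11:69672595-69672624, minus strand): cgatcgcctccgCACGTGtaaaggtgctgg

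In 9 of the 13 the E-box begins before the start site and in 4 after it. Among these genes, both Cre-positive arrays lay above both Cre-negative arrays for 8 of 11, and the median difference was 0.33. Among the 24 with a window and no E-box these were 14 genes and 0.25. Of all kept genes, with or without an E-box, 34.2% lay above in this way. Whether the E-box bears on the difference was not tested. Max, with an E-box across its start, and Eif4e, with 2 of them, had overlapping groups, as did Mxd4.

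As examples, 1 each from the Max network, the large subunit factors and the growth genes, the whole 250 bases before the start of Mnt, Nop2 and Nme1 follow, to show the setting of the box. The GC content of their windows was 70.7%, 66.0% and 59.3%.
Mnt (chr11:74830674-74830923, plus strand): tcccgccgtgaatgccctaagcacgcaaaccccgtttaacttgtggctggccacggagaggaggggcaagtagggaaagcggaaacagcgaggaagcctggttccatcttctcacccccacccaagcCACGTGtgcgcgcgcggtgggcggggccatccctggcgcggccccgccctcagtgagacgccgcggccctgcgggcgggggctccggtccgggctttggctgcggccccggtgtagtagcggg
Nop2 (chr6:125131633-125131882, plus strand): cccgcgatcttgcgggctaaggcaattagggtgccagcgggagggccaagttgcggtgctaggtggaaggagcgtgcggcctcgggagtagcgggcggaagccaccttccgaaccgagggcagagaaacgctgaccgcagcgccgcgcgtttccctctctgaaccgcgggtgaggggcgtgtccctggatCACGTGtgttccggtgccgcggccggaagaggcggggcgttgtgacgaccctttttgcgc
Nme1 (chr11:93968273-93968522, minus strand): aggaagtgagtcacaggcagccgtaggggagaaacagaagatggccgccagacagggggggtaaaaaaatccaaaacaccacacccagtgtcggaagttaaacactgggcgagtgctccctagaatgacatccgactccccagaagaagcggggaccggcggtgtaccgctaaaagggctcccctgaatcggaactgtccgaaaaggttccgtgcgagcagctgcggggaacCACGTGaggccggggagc

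The small nucleolar ribonucleoproteins guide the cutting and modification of ribosomal RNA, and their median difference was 0.31. Of their 6 genes, 4 had both Cre-positive arrays above both Cre-negative arrays (34.2% of all kept genes did). In limma 0 passed, and 2 were higher at an unadjusted p under 0.05 (14.3% of all kept genes). Dkc1, the enzyme that converts uridine to pseudouridine in ribosomal RNA, read 8.73 and 8.53 against 9.23 and 9.26. Its difference was 0.62 (SE 0.12, limma adjusted p = 0.0795), and its other probe sets differed by 0.48 and 0.80, so the 3 readings of the gene point the same way. Fbl, the methyltransferase of the box C/D particles, read 9.61 and 9.86 against 10.35 and 10.13. The Fbl groups did not overlap, and the difference was 0.51 (SE 0.15, limma adjusted p = 0.148). Rrp9, a protein of the particle that directs the earliest cuts, differed by 0.29 (SE 0.12), and Nolc1, a chaperone of these particles, by 0.21. A dimmer Nolc1 probe set differed by 0.73. The core proteins Nop56 and Nop58, which assemble with Fbl, did not separate. Nop56 read 9.33 and 9.27 against 9.17 and 9.41. Its other probe set read 9.59 and 8.73 against 8.76 and 8.57, a difference of −0.50 with overlapping groups. Nop58 read 8.62 and 7.83 against 8.66 and 8.47, where Cre-negative sample 2 was low and the other 3 arrays were close; without that array its difference was −0.06.

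The small subunit factors had the highest median of the role groups, 0.60. Rrp12 entered the test only through its Cre-positive signals, so it had to differ and is left out of the counts here. In the other 3, whose median was also 0.60, the Cre-positive arrays lay above the Cre-negative arrays and the unadjusted p was under 0.05, against 34.2% and 14.3% of all kept genes; 0 of the 3 passed in limma after adjustment. Utp20, a scaffold of the particle that processes the small subunit RNA, read 7.78 and 7.77 against 8.49 and 8.25, a difference of 0.60 (SE 0.13, limma adjusted p = 0.0955). Rrp12, needed for export of the subunits, read 4.51 and 4.89 against 5.57 and 5.26, near the bottom of the signal range (difference 0.72, SE 0.18, limma adjusted p = 0.122). Wdr43, another processing factor, read 8.69 and 8.47 against 8.99 and 8.99 (difference 0.41, SE 0.13), and its second probe set differed by 0.63.

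Noc4l gave different answers by probe set. The set used read 7.84 and 7.76 against 8.33 and 8.47 (difference 0.60, SE 0.12, limma adjusted p = 0.0782), and a further set differed by 0.69. Both carry the suffix _x_at, which marks probes that can match other transcripts. The remaining Noc4l sets differed by 0.01 and 0.06, reading 7.47 and 7.48 against 7.49 and 7.47 in the first of them. The difference of this gene thus rests on probe sets that may not be specific.

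Genes of RNA polymerase I and of ribosomal RNA synthesis had a median difference of 0.40. In 4 of 5 the Cre-positive arrays lay above the Cre-negative arrays (34.2% of all kept genes), and the same number were higher at an unadjusted p under 0.05 (14.3% of all kept genes), with 0 passing in limma. Mybbp1a, a nucleolar protein that binds the polymerase machinery, read 8.61 and 8.83 against 9.48 and 9.48. It had the smallest p of the 41 genes after Myc (difference 0.76, SE 0.13, limma adjusted p = 0.0615), and its dimmer probe set differed by 0.60. Polr1b, a catalytic subunit of the polymerase, read 5.14 and 5.0 against 5.90 and 5.49 (difference 0.62, SE 0.17, limma adjusted p = 0.135). Polr1a, the largest subunit, differed by 0.35 (SE 0.13), and Ddx21, a helicase of the nucleolus, by 0.40 (SE 0.15). The probe sets of Polr1a ran from −0.14 to 0.45, and the dimmer Ddx21 set differed by 0.13 with overlapping groups. Ncl, nucleolin, read 11.96 and 11.79 against 11.99 and 11.79. Its groups overlapped, and its 5 probe sets ran from −0.07 to 0.45. Among 10 further genes of this polymerase and its factors, 0 were called in limma. At an unadjusted p under 0.05, 1 was higher and 1 lower, near the 14.3% and 6.29% of all kept genes. Rrn3, the initiation factor that links the polymerase to growth signals, differed by 0.63 (SE 0.14, limma adjusted p = 0.0967), Polr1d by 0.32, Taf1d, of the promoter selectivity factor, by −0.58 (SE 0.16), and Ttf1, the terminator, by −0.10.

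The large subunit assembly factors were mixed. Their median was 0.19; 6 of 12 had the Cre-positive arrays above (34.2% of all kept genes), 2 had them below, near the 18.7% of all kept genes, and 4 overlapped. In limma 0 passed, with 4 higher and 1 lower at an unadjusted p under 0.05, against 14.3% and 6.29% of all kept genes. The clearest spread was inside the PeBoW complex, formed by Pes1, Bop1 and Wdr12, which matures the large subunit RNA. Pes1 read 8.76 and 8.75 against 9.12 and 9.11, so the mice of a group lay within 0.02 of each other (difference 0.36, SE 0.11, limma adjusted p = 0.163). Bop1 read 8.36 and 8.29 against 8.43 and 8.11, a difference of −0.05 with overlapping groups. Its other probe set read 7.54 and 7.32 against 6.91 and 6.74, a difference of −0.61.

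Wdr12 differed in the other direction from Pes1. It read 9.96 and 9.61 against 9.21 and 9.14 (difference −0.61, SE 0.15, limma adjusted p = 0.117), and 2.1% of kept genes had a difference at or below its own. A second Wdr12 probe set of similar signal read 10.04 and 9.76 against 8.56 and 8.53. It fell by 1.36 on the log2 scale (SE 0.14, limma adjusted p = 0.0351 when every one of 20967 probe sets was tested on its own), and was the single member probe set called in that fit, which called 182 in all. Another Wdr12 set, at the bottom of the signal range, differed by −0.19. The rule of the highest mean thus took the Wdr12 probe set with the smaller of the measurable differences.

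Of the remaining large subunit genes, Npm1, the nucleolar chaperone nucleophosmin, read 11.66 and 11.66 against 12.08 and 11.94 (difference 0.35, SE 0.12, limma adjusted p = 0.183). Rrp1b differed by 0.41 and Gnl3, nucleostemin, by 0.34. The RNA methyltransferase gene Nop2 differed by 0.31 and Nop16 by 0.23, with gaps between the groups of 0.05 and 0.06. Ppan differed by 0.15 and Nip7 by 0.00, both with overlap. Noc2l, a factor of subunit export, differed by −0.18, but its dimmer probe set by 0.47. Noc3l differed by −0.04, with its dimmer probe set at 0.63.

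**Figure D3:**
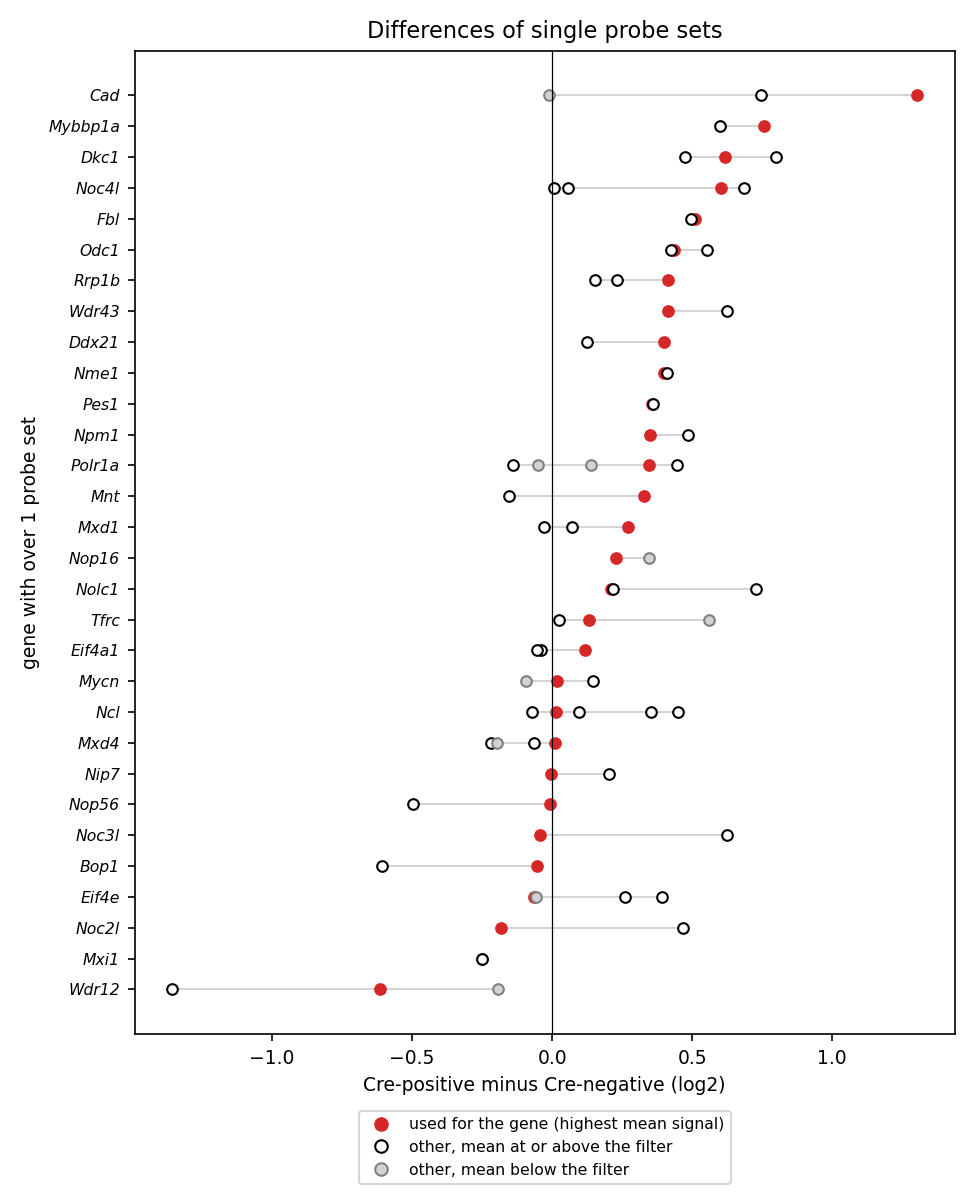
Differences (Cre-positive minus Cre-negative, log2) of the single probe sets of the 30 members that have more than 1; red is the set used for the gene, white another set with a mean at or above the filter, grey a set below it. In 12 of the 30 genes the probe sets differ in sign, and Wdr12 spans −1.36 to −0.19.

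Of the 93 probe sets, 84 had a mean at or above the filter, and 11 members had a single probe set, among them Myc, Max, Srm, Utp20 and Polr1b. Probe sets of a gene share the same RNA and are not replicates of it.

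Growth genes outside the nucleolus had a median difference of 0.40, and in 6 of 7 the Cre-positive arrays lay above the Cre-negative arrays (34.2% of all kept genes). At an unadjusted p under 0.05, 4 were higher (14.3% of all kept genes), and 0 passed in limma. Cad, the enzyme that starts pyrimidine synthesis, had the largest difference after Myc. It read 5.36 and 6.37 against 7.25 and 7.09, so the Cre-negative mice were 1.01 apart and the Cre-positive mice close together. The difference was 1.30 (SE 0.32, limma adjusted p = 0.116). It ranged from 0.80 without Cre-negative sample 1 to 1.81 without Cre-negative sample 2, and a further Cad probe set differed by 0.75.

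The polyamine enzymes went the same way. Srm, spermidine synthase, read 7.13 and 7.69 against 8.40 and 8.21 (difference 0.89, SE 0.21, limma adjusted p = 0.107). Odc1, the rate-limiting enzyme of the pathway, read 9.35 and 9.48 against 9.77 and 9.92 (difference 0.43, SE 0.12, limma adjusted p = 0.146), and its other probe sets differed by 0.55 and 0.42. Nme1, a nucleoside diphosphate kinase, read 10.27 and 10.35 against 10.72 and 10.70 (difference 0.40, SE 0.11, limma adjusted p = 0.142). Its second probe set differed by 0.41. Tfrc, the transferrin receptor, differed by 0.13 and Eif4a1, the helicase of translation initiation, by 0.12. The groups of Tfrc were only 0.01 apart. Eif4e, the cap-binding protein, differed by −0.06 with overlap, while its next probe sets differed by 0.39 and 0.26.

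Of 29 further growth genes with Myc as a known regulator of many, Slc7a5, the large neutral amino acid transporter, was called in limma, where 1.11% of all kept genes were called higher. It read 5.40 and 5.78 against 6.79 and 6.68, a rise of 1.15 (SE 0.16, limma adjusted p = 0.046). In all, 14 of the 29 were higher and 0 lower at an unadjusted p under 0.05, against 14.3% and 6.29% of all kept genes, with a median of 0.33.

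A wider set of ribosome biogenesis genes showed a smaller difference than the members. Of 90 kept, 0 were called in limma, and 24 (26.7%) were higher and 0 lower at an unadjusted p under 0.05, against 14.3% and 6.29% of all kept genes. In 60 (66.7%) the Cre-positive arrays lay above the Cre-negative arrays, against the 34.2% of all genes, and the median was 0.21. Naf1, an assembly factor of the pseudouridine particles that Dkc1 belongs to, read 8.09 and 7.84 against 8.80 and 8.82 (difference 0.85, SE 0.13, limma adjusted p = 0.0553). Rrs1, a large subunit factor, read 10.20 and 10.18 against 10.87 and 10.84 (difference 0.66, SE 0.11, limma adjusted p = 0.0586). On the lower side, Rrp36 differed by −0.18 and Emg1 by −0.13. Ribosomal protein genes, the building blocks themselves, had a median of 0.16. Of 43 kept, 0 were called in limma and 8 (18.6%) were higher and 0 lower at an unadjusted p under 0.05, the former near the 14.3% of all kept genes. The Cre-positive arrays lay above in 29 (67.4%), against 34.2%. Rps6 differed by 0.63 (SE 0.12), Rps19 by 0.50, Rps25 by −0.16 and Rpl12 by −0.19. Many ribosomal protein genes have near-identical processed copies that probes may not tell apart.

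**Figure D4:**
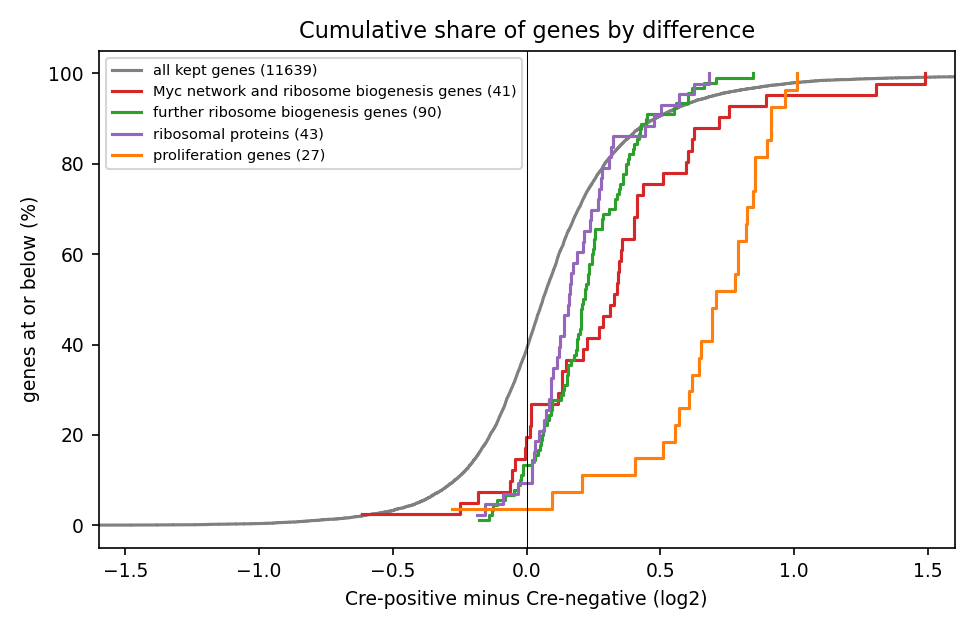
Cumulative share of genes (%) by their difference between the groups (Cre-positive minus Cre-negative, log2), for all kept genes and 4 gene lists, with the number of genes in brackets; the axis ends at 1.6 on both sides, beyond which some of all kept genes lie. The 41 genes have a median of 0.33, further ribosome biogenesis genes 0.21, ribosomal proteins 0.16, proliferation genes 0.71 and all kept genes 0.06.

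Growth and division are coupled in thymocytes, so the arrays were also read for 27 proliferation genes. Their median difference was 0.71, larger than that of the 41 genes, but the arrays fell in another order. Measured from each gene's mean, the list averaged −0.83 and 0.16 in the Cre-negative mice and −0.12 and 0.78 in the Cre-positive mice. Cre-positive sample 1 thus lay below Cre-negative sample 2. The 41 genes averaged −0.18 and −0.13 against 0.19 and 0.12, so their groups did not overlap. Of the Cre-positive pair, the array with the lower proliferation value was the higher for the 41 genes. Of the Cre-negative pair, the array with the lower proliferation value was also the lower for the 41 genes. In 21 of 27 proliferation genes the groups overlapped, against 11 of 41 members and 5486 of the 11639 kept genes. In limma 0 proliferation genes were called. At an unadjusted p under 0.05, 3 (11.1%) were higher and 0 lower, against 14.3% and 6.29% of all kept genes. Mcm5 differed by 0.91 (SE 0.28), Mcm4 by 0.57, and Tyms by −0.28. With the proliferation value of each array as a covariate, the member median was 0.34, and Myc differed by 1.45 (limma adjusted p = 0.0247). Cad then differed by 0.99 and Srm by 0.75, both less than without the covariate, and Polr1b by 0.81 and Nop58 by 0.69, both more. That fit has 1 residual degree of freedom and called 302 genes in all, against 160 without the covariate, so calls rose for genes in general. At an unadjusted p under 0.05 in limma, it had 16 members higher (39.0%), against 13.4% of all kept genes. The proliferation value was itself higher on average in the Cre-positive mice, so the covariate and the group are not fully separate in it. Whether proliferation bears on the differences of the 41 genes was not tested.

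**Figure D5:**
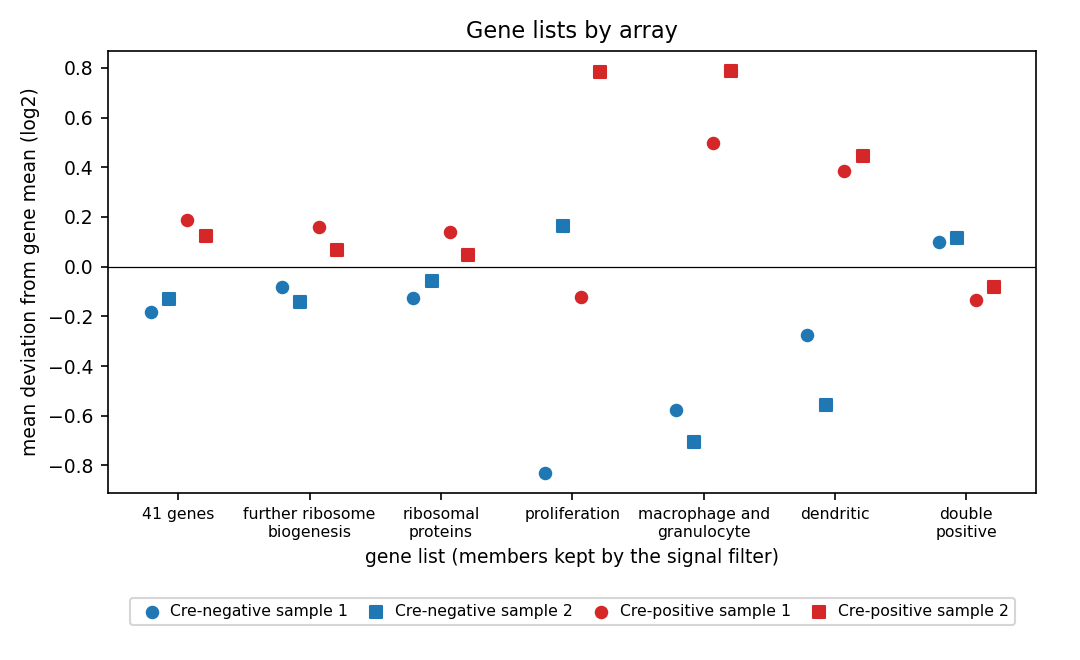
Mean deviation from each gene's mean (log2) of 7 gene lists on the 4 arrays; blue is Cre-negative and red Cre-positive, circles are sample 1 and squares sample 2. The 41 genes separate by group (−0.18 and −0.13 against 0.19 and 0.12), whereas for proliferation genes Cre-positive sample 1 (−0.12) lies below Cre-negative sample 2 (0.16).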

How the data were processed

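Double positive thymocytes of 4 mice were measured on Affymetrix arrays, 1 per mouse. Per the submitters' processing notes, the authors used RMA, which corrects background, normalizes the arrays and merges probes into 1 value per probe set. The deposited values are taken as log2; no version is stated, and the log base follows from RMA and the value range. RNA was labelled in a 2-cycle assay, per the labels' protocols. Array medians lay between 5.19 and 5.25. The number of arrays, 2 per group, limits the precision; an exact permutation test of a single gene cannot go below p = 0.333. The labels' protocols list several starting amounts of RNA without tying them to samples, and whether the arrays formed 1 batch is not stated; such a batch and the groups cannot be told apart.

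Of 45037 probe sets, 34945 had 1 gene symbol, 932 several and 9160 none; 34741 matched the RefSeq table by Entrez identifier, with 0 symbols changed. The brightest probe set stood for a gene. limma 3.58.1 in R 4.3.3 (lmFit, eBayes without trend) gave moderated differences, with 2 residual and 3.59 prior degrees of freedom, adjusted by Benjamini-Hochberg over 11639 genes. Figures used matplotlib 3.10.9. In simulated data for this comparison with 11639 genes, the fit recovered 65 of 100 genes shifted by 1 on the log2 scale and 99 of 100 shifted by 2, and 11 of its 175 calls were false. Alternatives varied the filter, probe set, variance prior, scaling, block, proliferation covariate and arrays. The members and lists were chosen with earlier results of these data known. Every member was to be named; of the other lists, called genes (at most 4) or, with none called, the 2 with the smallest p in each direction.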

Additional observations from a re-analysis of the deposited data

How the results depend on the processing

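The member median stayed above 0 and above the median of all genes in each of the 13 gene fits. Of 41 members, 29 kept their sign in every fit that held them. Rrp12, Polr1a and Polr1b, among these 29, were each below the filter in 1 fit. Not all of these fits could differ. Changing the filter, the variance prior or the block left the difference of each member as in the reported fit. Centring shifted all genes alike, so the place of the members against the median of all genes was fixed there. The count of all called genes, 160 in the reported fit, was 90 with the filter at the 60th percentile (fewer genes tested), 302 with the proliferation covariate, and 3 to 99 with an array left out (fewer samples). Members called higher were 0 with arrays centred, 0 with any array left out and 0 with every probe set on its own; members called lower were 1 in that last fit. The member median was 0.29 when the probe sets of a gene were averaged, 0.20 with arrays centred, 0.28 with every probe set on its own, and 0.27 to 0.36 with an array left out. Sign changes were limited to 12 members, with differences of at most 0.34 in size and none called. With the mean of all probe sets Mxd4 differed by −0.12, Nip7 by 0.10, Noc2l by 0.14, Noc3l by 0.29 and Eif4e by 0.13. With arrays centred Mycn differed by −0.11, Mxd4 by −0.12, Ncl by −0.11 and Eif4a1 by −0.010. With the proliferation covariate Mycn differed by −0.12, Max by −0.022, Bop1 by 0.079 and Nip7 by 0.048. With an array left out, differences ran from −0.11 to 0.14 for Mycn, −0.19 to 0.45 for Max, −0.18 to 0.20 for Mxd4, −0.12 to 0.11 for Nop56, −0.060 to 0.74 for Nop58, −0.21 to 0.10 for Bop1, −0.054 to 0.050 for Nip7, −0.24 to 0.15 for Noc3l, −0.089 to 0.12 for Ncl and −0.18 to 0.057 for Eif4e. The cause of these changes was not tested. The labels give both groups the sample numbers 1 and 2, which nothing ties to a litter or day; same-numbered arrays deviated together with r = 0.18 across genes. With the replicate block 821 of 11639 genes were called, 628 of them higher, so calls rose for genes in general. Among the 41 members 7 were called, each of them higher: Myc, Dkc1, Noc4l, Polr1b, Mybbp1a, Srm and Cad. That fit leaves 1 residual degree of freedom.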

Other observations

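Mxd3, the Max partner gene known for its expression in dividing cells, ordered the arrays as the proliferation genes did: 6.66 and 7.88 in the Cre-negative mice (samples 1 and 2) and 7.25 and 8.45 in the Cre-positive mice. Tyms, a proliferation gene, did not, at 5.32 and 6.16 against 5.49 and 5.43. Both genes were singled out after their values were seen.

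Cre-negative sample 2 was the lowest array for Nop58 (7.83, against 8.47 to 8.66 elsewhere) and for a dimmer Ncl probe set (8.02, against 8.80 to 8.92 elsewhere), while the brightest Ncl probe set read 11.79 to 11.99 on all 4 arrays. These readings were chosen after their values were seen.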
